A study of Mus musculus with 4 samples.

Results

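The 9 genes described here, Ddx4, Dazl, Nanos2, Nanos3, Dnd1, Pum2, Elavl2, Cpeb1 and Boll, encode RNA-binding proteins that control mRNAs in germ cells. They were chosen by gene symbol from a table of 22396 named mouse genes, and all 9 were present and all 9 were tested. The table reports low-input ribosome profiling of testis cells carrying the surface marker THY1. In this method RNA fragments shielded by ribosomes are sequenced, so that a read is taken to mark a ribosome on an mRNA. By the labels, 2 samples are Ddx20 knockout and 2 are from control littermates, each of about 1000 cells, and the comparison asks what loss of DDX20, an RNA helicase of the SMN complex that assembles spliceosomal particles, does to ribosome occupancy. Age, strain and the way Ddx20 was deleted are not stated in the sources used here, nor whether a group's samples are different animals. The p-values therefore may not cover the spread between animals. Where libraries differ by read sampling alone, they rest largely on read counts.

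Germ cells store many mRNAs and control when they are translated. Proteins of this kind bind sequences in the untranslated ends of mRNAs and either recruit the deadenylation machinery, which shortens the poly(A) tail and silences the message, or promote polyadenylation and ribosome loading. Several are also used as germ cell markers: DDX4 (the mouse vasa homologue) sits in germ granules, and DAZL licenses germ cells for sexual differentiation.

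The authors' deposited table has 1 comparison per gene and no column per sample, but its means resolve into whole reads of 4 libraries, called A to D here. They held 282722 reads in library C and 221439 in library D, against 941014 in library A and 789570 in library B. Positive fold changes point to libraries C and D and negative ones to A and B. Neither side is marked as the knockout, and the libraries therefore keep their letters here. Below, "fell" means lower in libraries C and D than in A and B, with an adjusted p under 0.05, and all directions turn together should C and D be the controls. Ddx20 itself had 32 and 30 reads in libraries C and D, against 287 and 244 in A and B, and fell by 1.83 on the log2 scale in the authors' deposited table (standard error 0.243, adjusted p = 4.07e-13). Reads of A and B were as close as sampling alone makes them (chi-square over its degrees of freedom 0.982 in 10424 genes, p = 0.905), so these libraries were also counted as 1 sample. Libraries C and D lay further apart than that (1.08 in 12228 genes, chi-square p = 3.79e-10). With fewer reads, libraries C and D had reads on more genes (19374 and 19157, against 14405 and 14048 in A and B). They also carried more reads on receptor genes of another tissue. The 1547 olfactory and vomeronasal receptor genes of the nose held 0.806% and 0.899% of the reads in C and D, against 0.00457% and 0.00469% in A and B. Whether such reads mark ribosomes was not tested. A receptor gene had on average 1.47 reads in library C and 1.29 in D, and the members with few reads are set against this below. These are raw reads without regard to coding length, so a count above those of receptor genes does not place a gene above background.

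Of the 9 genes, 5 fell (Dazl, Ddx4, Dnd1, Cpeb1 and Elavl2), 0 rose and 4 did not pass (Boll, Nanos2, Nanos3 and Pum2) in the authors' deposited table. Over all 17347 tested genes 18.8% fell and 26.9% rose. The median log2 fold change was -1.32 over the 9 genes and 0.38 over all tested genes. The share of falls differs with the mean level, so the 9 genes were also read against genes in their own bin, of 4 bins of equal size from the lowest mean (bin 1) to the highest (bin 4). In bin 4, where 61.2% of genes fell, 3 of 4 members fell, a share near the background. Ddx20, with a mean of 108, lies in bin 4 as well. In bin 3, 13.3% of genes fell and 2 of 3 members did. These members, Elavl2 and Cpeb1, have means of 24.9 and 21.6 in a bin that starts at 10.3 and ends below 27.2. Falls were more frequent in higher bins, so 13.3% may understate the share at their level. Nanos3 lies in bin 2 and Nanos2 in bin 1, where 0.623% and 0% of genes fell, so few or no falls were called at such levels. Levels are given below as CPM (counts-per-million of the reads in a library). They are compared between libraries and not between genes, since coding lengths were not used here.

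**Figure D1:**
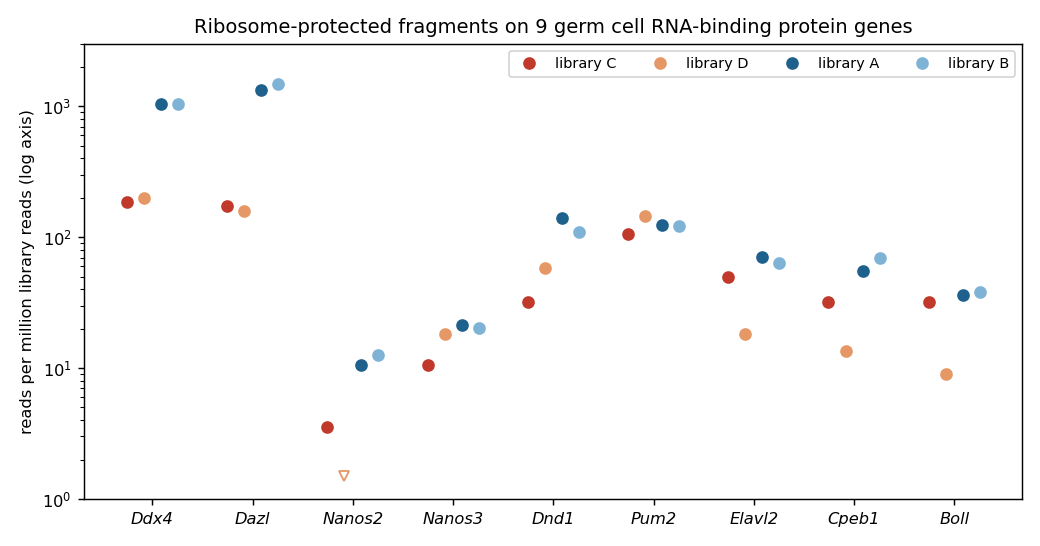
Level in CPM (log axis) of each of the 9 genes, 1 point per library, with libraries C and D in red and orange to the left of A and B in blue. The open triangle marks the 0 reads of Nanos2 in library D and stands at no measured value. Of the genes with reads in every library, Ddx4 and Dazl show the widest gap between the sides, and the points of Pum2 overlap.

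Dazl and Ddx4 had the steepest falls of the set. Dazl, an activator of translation that binds the 3' ends of germ cell mRNAs and brings in poly(A)-binding protein, had 173 and 158 CPM in libraries C and D (49 and 35 reads), against 1324 and 1474 CPM in A and B (1246 and 1164 reads). All reads of the C and D side lay far below both libraries of the other side, and the log2 fold change in the authors' deposited table was -3.61 (standard error 0.192, adjusted p = 6.87e-76). That is the 17th lowest of the 17347 tested fold changes. Ddx4, the DEAD-box helicase of germ granules, had 187 and 199 CPM in libraries C and D (53 and 44 reads), against 1037 and 1047 CPM in A and B (976 and 827 reads). Its deposited log2 fold change was -2.97 (standard error 0.183, adjusted p = 4.17e-57) in the authors' table, the 80th lowest. From the summed reads after the authors' size factors, the rate in C and D was 0.0814 of that in A and B for Dazl (exact 95% interval 0.0647 to 0.101) and 0.126 for Ddx4 (0.101 to 0.154). These intervals cover counting error only, as do the others given for reads here, and reads made by PCR without molecular identifiers are not independent molecules.

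Within a library the ratio of reads on a pair of genes does not depend on how the libraries were scaled. Dazl took 48.0% of the reads on Dazl and Ddx4 in library C (Wilson 95% interval 38.6 to 57.6) and 44.3% in library D (33.9 to 55.3), against 56.1% in A (54.0 to 58.1) and 58.5% in B (56.3 to 60.6). The Dazl share was thus lower in both libraries of the C and D side, with the interval of C overlapping those of A and B and that of D overlapping A. With 2 libraries a side an exact permutation test cannot give a two-sided p under 0.333, so this difference was not tested. Between A and B, Dazl differed by more than its binomial counting error before adjustment over 18 such comparisons and not after it (two-sided exact binomial test, p = 0.00885, adjusted p = 0.159).

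The promoters of the members that fell are shown as a description of sequence, since the starts of Ddx4 and Dazl are known as CpG-rich regions in germline genes. Whether these sequences bear on the falls was not tested. RefSeq's table for GRCm38.p6 held promoters of 8 of the 9 genes. Those of the 3 members that fell and have 1 start in that table follow, each as the 250 bases before the start, 5′ to 3′ on the gene's strand (minus for all 3). Capitals mark an E-box (CACGTG), an E2F-type site (GCGGGA, or TCCCGC on the other strand), a CCAAT box (CCAAT or ATTGG) and a TATA box (TATAAA or TTTATA). No matches overlap.
Ddx4, chr13:112652311-112652560: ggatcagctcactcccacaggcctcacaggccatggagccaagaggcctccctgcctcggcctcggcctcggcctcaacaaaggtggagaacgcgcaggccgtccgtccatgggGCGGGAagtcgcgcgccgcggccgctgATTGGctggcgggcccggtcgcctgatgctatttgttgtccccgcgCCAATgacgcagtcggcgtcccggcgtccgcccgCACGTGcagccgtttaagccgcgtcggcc
Dazl, chr17:50293621-50293870: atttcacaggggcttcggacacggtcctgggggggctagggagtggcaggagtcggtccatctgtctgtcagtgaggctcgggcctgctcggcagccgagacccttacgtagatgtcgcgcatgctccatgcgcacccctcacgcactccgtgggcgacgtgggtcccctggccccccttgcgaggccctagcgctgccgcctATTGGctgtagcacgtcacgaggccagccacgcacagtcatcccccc
Cpeb1, chr7:81454759-81455008: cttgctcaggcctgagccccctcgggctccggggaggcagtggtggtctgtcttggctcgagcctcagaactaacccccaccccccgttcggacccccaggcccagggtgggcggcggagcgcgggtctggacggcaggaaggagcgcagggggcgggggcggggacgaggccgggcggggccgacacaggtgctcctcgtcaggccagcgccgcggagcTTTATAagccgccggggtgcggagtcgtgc
The Ddx4 window holds 31 CpG dinucleotides, that of Dazl 20 and that of Cpeb1 25, against a median of 6 over 32851 promoter windows of this length. Of those windows 5.19%, 17.9% and 10.7% hold at least as many. A CCAAT box is in the Ddx4 window and in the Dazl window, and in 33.8% of all windows. The E-box and the E2F-type site were found in the Ddx4 window only of these 3, and 6.02% and 16.9% of all windows hold them. The TATA box was found in the Cpeb1 window, as in 12.4% of all windows. A match is a description of letters and says nothing about binding.

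Dnd1 and the Nanos genes encode partners in one repressive complex: DND1 binds mRNAs together with NANOS2, which recruits the CCR4-NOT deadenylase, and NANOS2 keeps spermatogonial stem cells undifferentiated. Dnd1 had 31.8 and 58.7 CPM in libraries C and D (9 and 13 reads), against 140 and 109 CPM in A and B (132 and 86 reads), with no overlap. It fell by 1.95 on the log2 scale in the authors' deposited table (standard error 0.407, adjusted p = 4.33e-06). Nanos2 had 1 read in library C and 0 in library D, where 3 reads, the limit that a count of 0 allows, would be 13.5 CPM, against 10 reads each in A and B (10.6 and 12.7 CPM). The rate of Nanos2 in C and D was 0.117 of that in A and B, with an exact 95% interval of 0.00282 to 0.730. In the authors' deposited table its log2 fold change was -1.03 with a standard error of 1.36 and did not pass (adjusted p = 0.163), although limma on the recovered reads passed it (-2.36, adjusted p = 6.24e-04) except without library C (adjusted p = 0.0953) or D (0.282). A level of 1 read or more was reached in library C by 68.8% of the nose receptor genes, so its read there lay within their range.

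Nanos3, which protects early germ cells from loss, had 3 and 4 reads in libraries C and D (10.6 and 18.1 CPM), against 20 and 16 reads in A and B (21.3 and 20.3 CPM). Both values were lower on the C and D side, yet the log2 fold change of -0.70 in the authors' deposited table did not pass (standard error 0.742, adjusted p = 0.278). Of the nose receptor genes, 21.1% had at least as many reads in library C and 6.92% in D. Loss of Nanos2, Nanos3 or Dnd1 function is known to deplete germ cells in mice.

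Cpeb1 and Elavl2 fell as well, at lower read counts. Cpeb1, which binds the cytoplasmic polyadenylation element and switches stored mRNAs between silence and translation, had 31.8 and 13.5 CPM in libraries C and D (9 and 3 reads), against 55.3 and 69.7 CPM in A and B (52 and 55 reads). It fell by 1.74 on the log2 scale (standard error 0.571, adjusted p = 0.00277) in the authors' deposited table. Elavl2, an RNA-binding protein of the ELAV family that binds AU-rich elements and is best known from neurons, had 49.5 and 18.1 CPM in libraries C and D (14 and 4 reads), against 71.2 and 63.3 CPM in A and B (67 and 50 reads). Its log2 fold change of -1.32 (standard error 0.493, adjusted p = 0.00961) in the authors' deposited table was the smallest among the 5 that fell. Library C stood above library D for both genes, and neither overlapped the other side. In library D, 16.1% of the nose receptor genes had at least the 3 reads of Cpeb1 and 6.92% at least the 4 of Elavl2.

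Boll and Pum2 did not pass. Boll, the member of the DAZ family that acts in meiosis and after it, had 31.8 and 9.03 CPM in libraries C and D (9 and 2 reads), against 36.1 and 38.0 CPM in A and B (34 and 30 reads). The value of library C was close to those of A and B and that of D was well under them, and the deposited log2 fold change was -1.06 (standard error 0.638, adjusted p = 0.0864) in the authors' table. With limma on the recovered reads Boll passed (-1.42, adjusted p = 0.00874), but not with library totals (adjusted p = 0.116), without library C (0.0849) or without library D (0.243). Pum2, a PUF family repressor expressed in many tissues besides the germline, had 106 and 145 CPM in libraries C and D (30 and 32 reads), against 123 and 122 CPM in A and B (116 and 96 reads). Library D was above and library C below the other side. The log2 fold change of Pum2 in the authors' deposited table was -0.50 (standard error 0.284, adjusted p = 0.114), and did not pass. Under limma it passed with the authors' size factors (-0.55, adjusted p = 0.0251), but not with A and B summed (adjusted p = 0.0783), without library A (0.108), B (0.102) or C (0.303), or with library totals, where it was 0.0077 (adjusted p = 0.976).

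**Figure D2:**
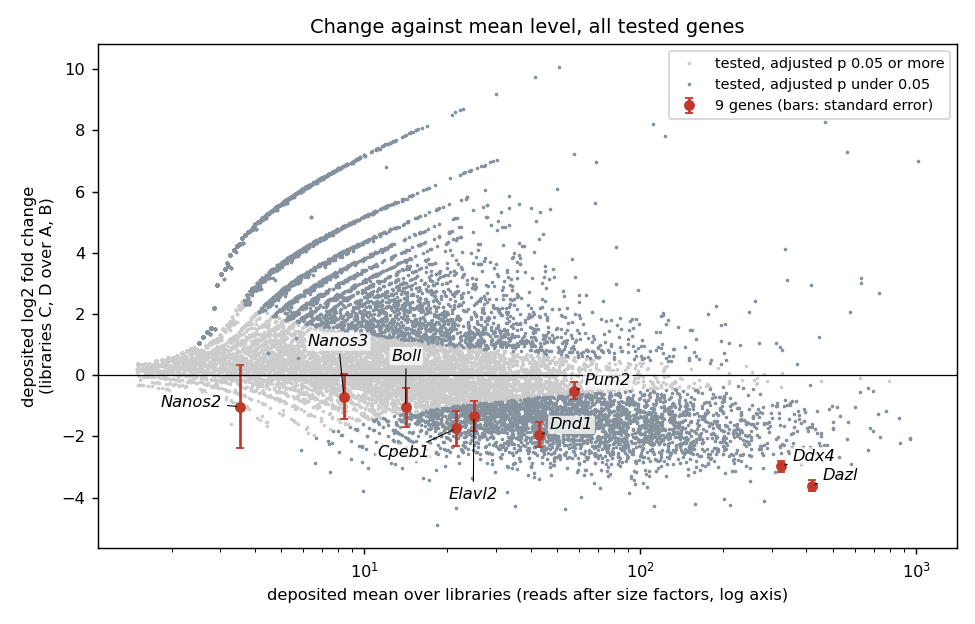
Deposited log2 fold change (libraries C and D over A and B) against the deposited mean (reads after size factors, log axis) for all 17347 tested genes, with the 9 genes in red and bars of 1 standard error. Dazl and Ddx4 lie at the lower right, at -3.61 and -2.97, and the other 7 lie between -1.95 and -0.50.

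In CPM both libraries C and D lay below both A and B for 8 of the 9 genes, all but Pum2, against 22.3% of tested genes and 60% of those in bin 4. After the authors' size factors this held for 9 of 9, against 30.8% of tested genes and 74.5% of those in bin 4. The size factors and the library totals differ in this comparison: library totals raised the median log2 fold change of all genes by 0.56 relative to the authors' factors under limma. With limma and the authors' factors 28.8% of 14470 genes fell and 40.9% rose, and with library totals 18.9% fell and 50.2% rose.

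The set as a whole took fewer reads and was made up differently on the C and D side. Together the 9 genes held 0.0626% of all reads in library C (0.0540 to 0.0725, Wilson 95%) and 0.0619% in D (0.0523 to 0.0731), against 0.282% in A (0.271 to 0.293) and 0.296% in B (0.284 to 0.308). Ddx4 and Dazl made up 57.6% of those reads in library C (50.3 to 64.7) and 57.7% in D (49.3 to 65.6), against 83.8% in A (82.3 to 85.1) and 85.3% in B (83.8 to 86.7). The share of Pum2 was 16.9% in C and 23.4% in D, against 4.37% in A and 4.11% in B. The make-up was close to equal within a side for Ddx4 and Dazl, and the intervals of the sides did not overlap for their joint share.

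**Figure D3:**
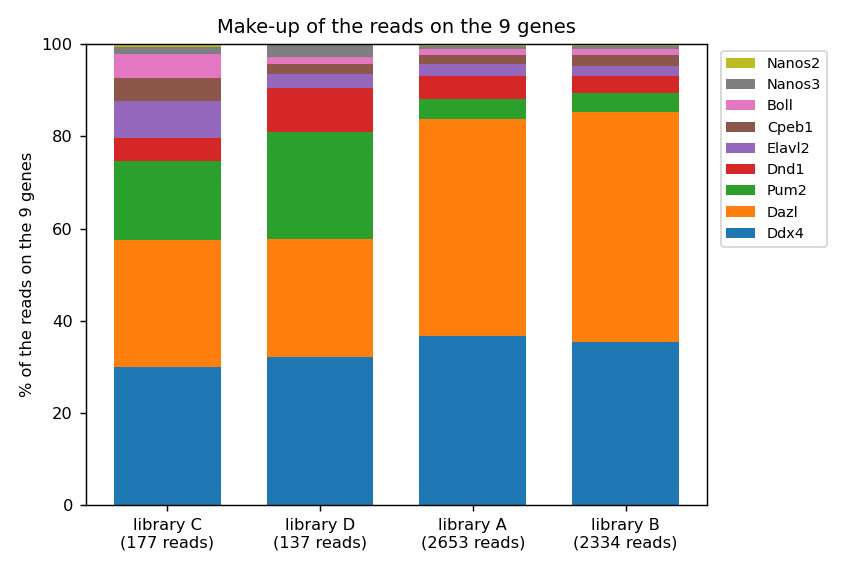
Share of each gene in the reads on the 9 genes, in percent, with 1 stacked bar per library in the order C, D, A, B and the number of reads under each bar. Ddx4 and Dazl fill 57.6% and 57.7% of the bars of C and D, against 83.8% and 85.3% of those of A and B.

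Germ cell markers moved in the same comparison. The 8 germ cell markers that are not among the 9 genes (Dppa3, Mael, Tex101, Stk31, Sycp3, Usp26, Rhox13 and Tex11) had summed levels of 414 and 470 CPM in libraries C and D, against 2946 and 3099 CPM in A and B. Of them Dppa3 had 0 reads in A, B and D, and 2 in C. The 5 lists of somatic markers (Sertoli, Leydig, stromal, endothelial and macrophage, 40 genes) had summed levels of 4418 and 4629 CPM in C and D, against 2326 and 2271 CPM in A and B. Of these 40 genes 11 rose and 5 fell in the authors' deposited table, and the rises are near the share over all tested genes (26.9% rose and 18.8% fell). The lists differed: stromal markers summed to 3116 and 3170 CPM in C and D, against 1526 and 1502 CPM in A and B, with much of that sum on the collagen genes Col1a1, Col1a2 and Col3a1. The sum of the Sertoli markers went the other way, with 301 and 379 CPM in C and D, against 427 and 412 CPM in A and B. Clu alone differed by more than this sum, with 42.4 and 81.3 CPM in C and D, against 204 and 190 CPM in A and B. The direction of the Sertoli sum thus rests on Clu. By the deposited adjusted p, 2 of the 10 Sertoli markers fell (Clu and Amh), 1 rose (Wt1) and 7 were called neither way. The 13 markers of undifferentiated spermatogonia and prospermatogonia, Nanos2 and Nanos3 among them, summed to 1471 and 1264 CPM in C and D, against 2326 and 2249 CPM in A and B, a smaller difference than that of the germ cell markers. Of these 13, 8 fell and 5 did not pass (median log2 fold change -1.03) in the authors' deposited table. The falls ran from -0.86 (Id4) to -3.14 (Epcam), with Zbtb16 at -1.58 and Gfra1 at -1.67. Sall4 (-0.44), Dnmt3l (0.50) and Utf1 (0.78) were among those that did not pass. In these bulk libraries fewer germ cells and less of an mRNA or fewer ribosomes per cell cannot be told apart, and without matched RNA sequencing neither can mRNA level and ribosome loading. The part of cell make-up in the falls was not tested.

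Set against the 8 other germ cell markers in the same library, the members differed among themselves. Ddx4 had 45.3 and 42.3 reads per 100 marker reads in libraries C and D, against 35.2 and 33.8 in A and B. Dazl had 41.9 and 33.7 in C and D, against 44.9 and 47.6 in A and B. Pum2 had 25.6 and 30.8 reads per 100 marker reads in C and D, against 4.18 and 3.92 in A and B. Against the marker sum Ddx4 and Dazl thus differed less between the sides than Pum2. The members with fewer reads were also higher per marker read in both C and D, apart from Nanos2 with its 1 and 0 reads there. Dnd1 had 7.69 and 12.5 reads per 100 marker reads in C and D, against 4.76 and 3.51 in A and B. Elavl2 had 12.0 and 3.85 in C and D, against 2.42 and 2.04 in A and B, and Cpeb1 had 7.69 and 2.88, against 1.88 and 2.25. Boll had 7.69 and 1.92 reads per 100 marker reads in C and D, against 1.23 and 1.23 in A and B, and Nanos3 had 2.56 and 3.85, against 0.722 and 0.654. These ratios of Dnd1, Elavl2, Cpeb1, Boll and Nanos3 rest on 2 to 14 reads per library in C and D. Marker sums of 117 and 104 reads in C and D limit the precision of these ratios. Their direction also depends on which markers form the sum. In the authors' deposited table the log2 fold changes of the tested markers ran from -1.44 (Mael) to -4.21 (Tex11), against -2.97 for Ddx4. Mael had 32 and 31 reads in C and D, against 214 and 199 in A and B, and relative to Mael alone Ddx4 was lower in C and D.

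Genes with the most similar pattern over the 4 libraries were found among 8736 genes with a deposited mean of at least 10, by the summed absolute difference in log2(CPM + 1) after centring each gene. Nearest to Ddx4 were Polr3g, an RNA polymerase III subunit (distance 0.067), Nae1, of the NEDD8-activating enzyme (0.17), and Rnf17, a Tudor protein of male germ cells (0.18). Nearest to Dazl were the chromatin remodeller Hells (0.17), the histone acetyltransferase Hat1 (0.34) and Tm9sf5 (0.41). Hells had 50 and 35 reads in libraries C and D, against 1291 and 1095 in A and B, almost the numbers of Dazl. Nearest to Dnd1 was Elovl6, to Pum2 Atg2b, to Elavl2 Lrr1, to Cpeb1 Hdgfl3 and to Boll Lamtor4. With 4 libraries, of which A and B are nearly equal, such likeness rests on few independent values.

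Paralogues of the members did not share one direction. The authors' deposited table tested 12 paralogues and close relatives: 4 fell, 2 rose, and their median on the log2 scale was 0.30. Over all tested genes 18.8% fell and 26.9% rose, with a median of 0.38, and 5 of the 12 lie in bin 4, where 61.2% fell. Cpeb2, a cytoplasmic polyadenylation element binding protein like Cpeb1, had 81.4 and 58.7 CPM in libraries C and D (23 and 13 reads), against 4.25 and 6.33 CPM in A and B (4 and 5 reads), and rose by 2.93 on the log2 scale (standard error 0.718, adjusted p = 5.04e-05) in the authors' deposited table. Cpeb4 rose as well (2.05, standard error 0.975, adjusted p = 0.0157), from 9 and 9 reads in C and D against 5 and 2 in A and B. Cpeb1 thus fell while Cpeb2 and Cpeb4 rose, and Cpeb3 did not pass (0.87, adjusted p = 0.184) in the authors' deposited table. Those rises came at 9 to 23 reads per library in C and D, while nose receptor genes reached at most 10 and 9 reads there. Coding lengths were not used, so this does not place Cpeb2 or Cpeb4 above that background. Ddx3x, the ubiquitous relative of Ddx4, had 170 and 181 CPM in C and D, against 594 and 614 CPM in A and B, and fell by 2.32 on the log2 scale (standard error 0.199, adjusted p = 7.29e-30) in the authors' deposited table. Elavl1, the widely expressed ELAV protein HuR, fell to 63.7 and 90.3 CPM in C and D, against 210 and 249.5 CPM in A and B (adjusted p = 2.80e-11 in the authors' deposited table). Pum3, a nucleolar PUF-like protein, had a log2 fold change of -2.15 there and fell.

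Genes of the machinery that these proteins recruit fell in part. Among 19 deadenylation factors the authors' deposited table has 12 falls and 1 rise, and a median of -1.01 on the log2 scale. The CCR4-NOT subunits Cnot1 (-1.24), Cnot9 (-2.65) and Cnot10 (-1.57) fell and Tnks1bp1 rose (0.96) in the authors' deposited table. For 17 cytoplasmic polyadenylation and cap-binding repression factors it has 8 falls and 1 rise (median -0.93, the authors' deposited table). The poly(A)-binding protein inhibitor Paip2 (-2.79) and the 3' processing subunits Cpsf3 (-2.29) and Fip1l1 (-2.11) fell, while the poly(A)-binding protein gene Pabpc1 rose (0.46) in the authors' deposited table. Bin 4 by mean, where 61.2% of all genes fell, holds 13 of the 19 and 10 of the 17.

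Partners of DDX4 in germ granules and mRNAs held to be controlled by the members fell in most cases. For 14 germ granule partners the authors' deposited table has 12 falls, 1 rise and a median of -1.90, and 13 of them lie in bin 4, where 61.2% of all genes fell. On the log2 scale Rnf17 (-2.97), the PIWI protein Piwil2 (-2.11) and Tex15 (-1.86) fell, while the Tudor protein Tdrd6 rose (2.61, with 22 and 23 reads in C and D against 6 and 9 in A and B) in the authors' deposited table. A hand-made list of 12 mRNAs linked to control by DAZL, NANOS2 or DND1, not checked against binding data, had 10 falls and 0 rises in the authors' deposited table and a median of -2.17. Of those 12, 9 lie in bin 4 with its 61.2% of falls. On the log2 scale Taf7l (-3.12), Tex19.1 (-3.26) and the spindle protein Tpx2 (-2.05) fell in the authors' deposited table. Stra8, a meiosis gene known to be repressed through NANOS2, fell (-2.13), and so did Sycp3 (-3.99), a synaptonemal complex gene known as a DAZL target, in the authors' deposited table. Sycp3 is also 1 of the germ cell markers above, which were lower in the same libraries, and their part in these falls was not tested.

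**Figure D4:**
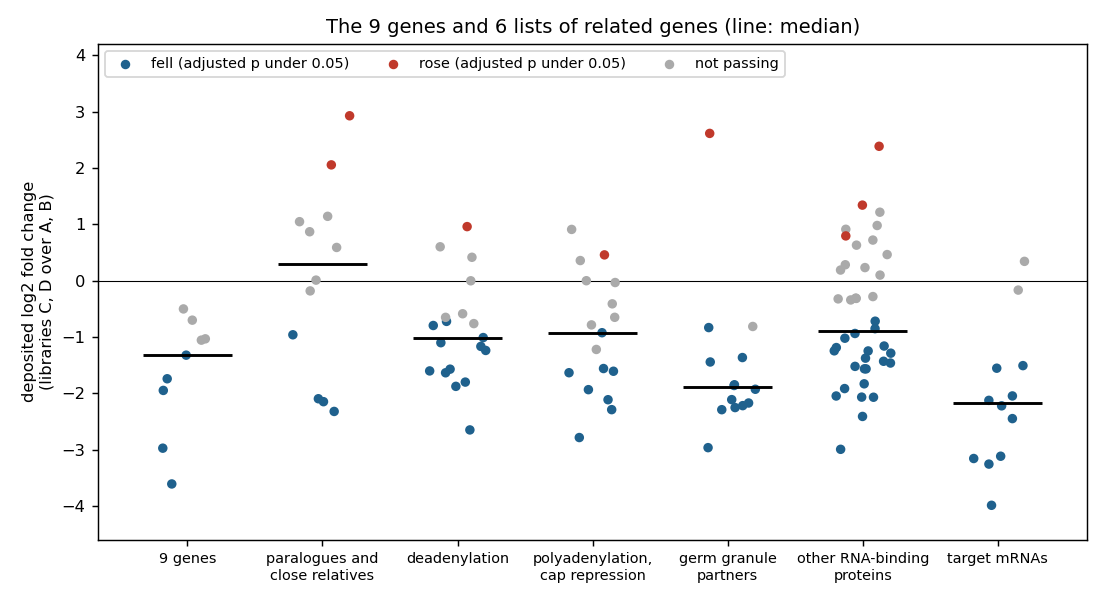
Deposited log2 fold change (libraries C and D over A and B) of each tested gene, with the 9 genes at the left and the 6 lists to their right. Blue points fell, red points rose and grey points did not pass, and the line is the median. Medians run from 0.30 for the paralogues to -2.17 for the target mRNAs.

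The authors' deposited table tested 40 other germline and translational RNA-binding proteins: 22 fell, 3 rose, and the median was -0.90, with 28 of the 40 in bin 4. The stress granule proteins G3bp2 (-2.41) and Caprin1 (-1.57) fell on the log2 scale in the authors' deposited table, as did Fxr1 (-2.07), a relative of the fragile X protein. Over the 6 lists together, each gene counted once and the 9 genes left out, 68 of 114 fell and 8 rose (median -1.17) in the authors' deposited table. That share was higher than the 18.8% of all tested genes. Bin 4, where 61.2% of genes fell, holds 78 of the 114, and the others lie in bins where at most 13.3% fell. The pooled share mixes these bins and is matched to neither figure, and falls were not counted per bin.

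Every call among the 5 falls held in limma on the recovered reads, with libraries A and B summed, and without each library in turn. Across 11 or 12 such settings the log2 fold change ran from -3.76 to -3.05 for Dazl, from -3.13 to -2.42 for Ddx4, from -2.46 to -1.52 for Dnd1, from -2.53 to -1.36 for Cpeb1 and from -2.31 to -0.96 for Elavl2. The largest adjusted p among them was 0.0307, for Elavl2 without library D. Without library C Elavl2 stood at the other end of its range, with library D as the lone sample of its side, which limma takes to vary like the others.

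**Figure D5:**
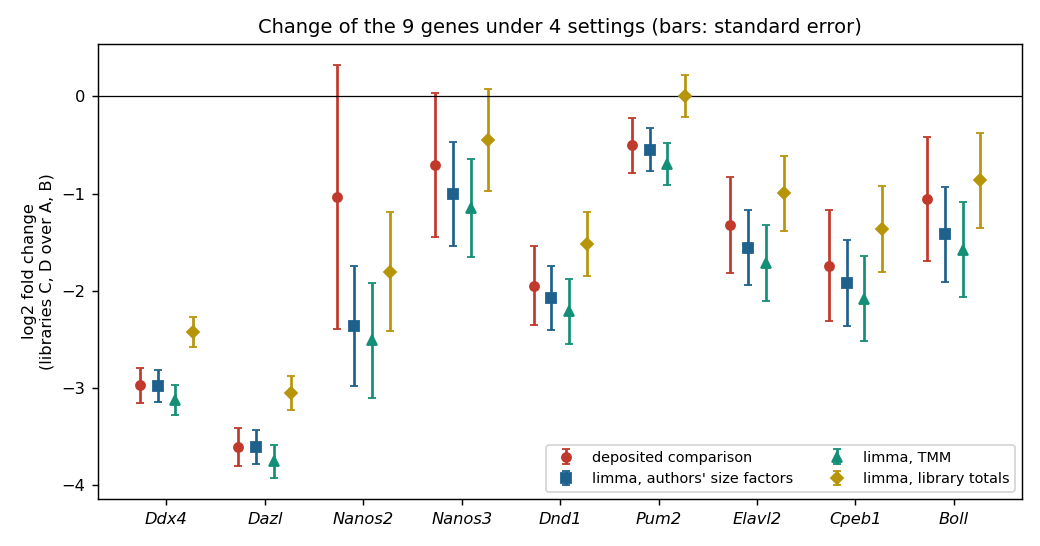
Log2 fold change (libraries C and D over A and B) of the 9 genes in the deposited comparison and in limma with the authors' size factors, TMM factors and library totals, with bars of 1 standard error. Library totals give the value nearest 0 or above it for Pum2 (0.0077) and keep Dazl (-3.05) and Ddx4 (-2.42) far below 0.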

How the data were processed

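Per the labels' protocols, lysates were digested with RNase I, ribosomes were pelleted through sucrose, and protected RNA 26 to 34 nucleotides long was gel-selected and built into libraries by tailing. The submitters' processing notes list DESeq2, edgeR, STAR 2.7.5c, Trimmomatic 0.39, StringTie 2.1.7 and build mm10, without roles or an annotation. Per the file headers, the authors deposited a mean signal over libraries after size factors, a log2 fold change with its standard error, and a p-value and adjusted p-value per gene. Whether fold changes were shrunken is not stated. For 15439 of 17347 tested genes the deposited p differed by over 10% from the normal p of fold over standard error. For each of the 9 genes the deposited log2 fold change was smaller in size than the log2 rate from summed reads after size factors. The gap was widest for Nanos2 (-1.03, against -3.10).

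The main result is the authors' own comparison, as the table has no sample columns. Whole reads were recovered by solving each mean for 4 fixed steps (20512 rows had 1 solution and 3 had several, at a relative tolerance of 8e-15). When 500 means were shifted by 1e-09 of their size, 0 could be solved. Sides were read from fold change signs of genes with 1 read. One unnamed row (0.00475% of the summed means) was left out. As alternatives, limma 3.58.1 (voom) was run on 14470 genes with at least 10 reads, with Benjamini-Hochberg adjustment. Both steps were tested on simulated data. The 9 genes and all lists were chosen with earlier results of these data known, and lists were described by counts and medians without a test. The named genes are the 9, Ddx20 and Thy1, up to 3 per list with the smallest deposited p, and up to 3 most like each member with at least 50 reads. Others, such as those that rose or the paralogues and targets beyond these, were picked after their values were seen. Thy1 had 1 and 3 reads in libraries C and D, against 18 and 15 in A and B, with -1.05 on the log2 scale (adjusted p = 0.156) in the authors' deposited table. One result on a related gene is not reported here.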

Additional observations from a re-analysis of the deposited data

How the results depend on the processing

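The 5 falls kept their direction and stayed under 0.05 in all limma settings that tested them. Dazl is itself among the 50 most abundant genes and Nanos2 and Nanos3 have under 50 reads, so these have no value in those settings. Nanos2, Boll and Pum2 were passed by limma on the recovered reads and not by the deposited comparison, and the cause was not tested. Nanos2 had log2 fold changes of -2.36 with the authors' size factors, -2.51 with TMM, -1.81 with library totals, -2.32 with upper-quartile factors, -2.33 with no minimum, -2.33 with libraries A and B summed and -2.36 without the 50 most abundant genes. Boll had -1.42 with the authors' size factors, -1.58 with TMM, -1.38 with upper-quartile factors, -1.39 with a minimum of 50 reads, -1.44 with no minimum, -1.43 with A and B summed and -1.42 without the 50 most abundant genes. Pum2 had -0.55 with the authors' size factors, -0.69 with TMM, -0.50 with upper-quartile factors, -0.55 with a minimum of 50 reads, -0.55 with no minimum and -0.55 without the 50 most abundant genes, and turned to 0.0077 with library totals. Nanos3 passed with TMM only (-1.15). Leaving out 1 library gave -2.98 to -1.74 for Nanos2, -1.34 to -0.63 for Nanos3, -2.29 to -0.71 for Boll and -0.74 to -0.31 for Pum2, which then passed only without library D.

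The count of the 9 genes that fell was 5 in the deposited comparison, 8 with limma and the authors' size factors and 9 with TMM. It was 8 with upper-quartile factors, 8 with no minimum and 6 with library totals. A minimum of 50 reads, without Nanos2 and Nanos3, gave 7, as did leaving out the 50 most abundant genes, Dazl among them. Falls over all genes moved too. They were 3257 of 17347 (18.8%) in the deposited comparison and 4168 of 14470 (28.8%) with the authors' factors. With TMM they were 4537 of 14470, and with library totals 2742 of 14470 (18.9%). Of the 114 related genes, 8 rose in the deposited comparison, 16 with the authors' size factors, 29 with library totals, 15 with upper-quartile factors, 16 with no minimum, 15 with A and B summed, 16 without the 50 most abundant genes and 11 to 16 with 1 library left out. Of all genes 4663 rose in the deposited comparison, 7270 with library totals, 1547 with a minimum of 50 reads and 11261 with no minimum. The order of levels among the 9 genes per coding length was not run. Libraries C and D, with 137 to 177 reads on the 9 genes, limit every ratio. No paired analysis was possible because the table carries no sample columns or replicate numbers.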

Other observations

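Some related genes rose against the majority of their lists. In the authors' deposited table the translational repressor Samd4 rose (2.38, adjusted p = 0.00108), as did Meioc, a meiotic partner of YTHDC2 (1.34, adjusted p = 0.0424), and Trim71, a stem cell regulator of mRNA silencing (0.79, adjusted p = 5.08e-04). Samd4 had 22 and 9 reads in libraries C and D, against 8 and 3 in A and B. These genes were picked for their direction after their values were seen. Nose receptor genes reached 10 and 9 reads at most in C and D, and the part of that background in the rises was not tested.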
